A study of Mus musculus with 6 samples.

Results

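Of the genes that set how a cell dies when a cytotoxic T cell attacks it, 10 were described here in E0771 mouse mammary carcinoma cells. They comprise 3 necroptosis genes (Zbp1, Ripk3 and Mlkl), 2 gasdermins (Gsdmd and Gsdme), 2 inflammatory caspases (Casp1 and Casp4) and 3 serpins of the intracellular clade (Serpinb9, Serpinb6a and Serpinb6b). They were chosen by gene symbol from a table of counts for 28063 genes, and all 10 had a row and were among the 14675 genes that passed the low-count filter. Ripk3 was higher and Serpinb6b lower in both populations with added Malt1 than in the control, by about the same amount with either form. None of the 10 genes passed the threshold over all genes.

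The series holds 6 libraries in 3 groups of 2. Vector cells carried a control vector, Malt1_WT cells expressed wild-type Malt1, and Malt1_PD cells expressed a mutant Malt1 whose label, PD, is not spelled out. All 3 groups were E0771 cells that had met activated CD8 T cells at 3 effectors per target for 12 hours, were then detached and seeded again, and were lysed 6 hours later, so no group shows the cells without T cells. Clone status and the origin of the 2 libraries of a group, from 1 culture or several, are not labelled. The p-values therefore rest on how far these libraries differ, possibly for technical reasons, and Malt1 and any other feature that sets a population apart cannot be told apart.

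Cytotoxic T cells deliver perforin and granzymes, and the target cell can die by apoptosis or by 2 routes that open its membrane. In necroptosis, the kinase RIPK3 phosphorylates MLKL, which then breaches the plasma membrane, and ZBP1 is a nucleic acid sensor that can start this route. In pyroptosis, caspase-1 or caspase-4 (the mouse protein is widely called caspase-11) cuts gasdermin D, and granzyme B cuts gasdermin E, and the freed parts form pores. Serpins of clade B inhibit proteases inside the cell, and among them the mouse products of Serpinb9 and Serpinb6b inhibit granzyme B and granzyme A. Caspase-8 holds necroptosis in check, and MALT1 is a protease and scaffold of NF-kB signalling that resembles the caspases in its protease domain.

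Total counts per library ran from 14045390 to 19962014, so the floor of 3 counts came to 0.149 to 0.213 CPM (counts scaled to a common library size with TMM factors), a limit that covers counting error only. The replicates of 2 groups differed along gene length: the difference of replicate 1 from replicate 2 had a Spearman rho with length of -0.67 in Vector and -0.53 in Malt1_WT against 0.05 in Malt1_PD (a description over 9569 genes, which are not independent). Malt1 itself stood at 23.8 and 31.3 CPM in Vector, and both populations labelled with added Malt1 were higher, at 67.1 and 82.0 CPM (Malt1_WT) and 105 and 95.6 CPM (Malt1_PD). Carried-over T cells left few reads: 10 of 16 T cell and cytotoxicity genes had a row, their sum was between 4 and 18 counts in a library (at most 0.896 CPM), and between 4 and 7 of the 10 were at 0 in each library. Over all 6 libraries the perforin gene Prf1 had 4 counts and Ifng had 1 count. The 6 macrophage genes summed to between 9.51 and 11.5 CPM in Vector, 8.39 and 9.41 CPM in the Malt1_WT libraries, and 7.77 and 8.72 CPM in those of Malt1_PD. Most of these reads were of Cd68 and Lyz2, with 605 and 252 counts over all libraries. Adgre1, Itgam, Csf1r and Mrc1 had 6, 13, 32 and 42 counts and were close to absent. The part of these 6 genes in the results was not tested. Of 5 epithelial genes, Krt8 was at 59.3 RPKM (CPM per kilobase of gene length) and Epcam at 3.29 RPKM. Krt18, Cdh1 and Krt7 had 44, 31 and 23 counts over all libraries and were close to absent.

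The 10 genes spanned a wide range of levels per length, from the executor Mlkl to the gasdermin Gsdme. On the RPKM scale, Mlkl averaged 44.4 over the 6 libraries (38.6 to 49.6) and Serpinb6a 39.9 (34.6 to 47.8), ranges that overlapped. Ripk3 followed at 21.5 (16.8 to 24.7), apart from its neighbours on both sides. Casp1 at 13.1 (11.7 to 15.0) and Gsdmd at 11.03 (9.55 to 12.2) overlapped, as did Serpinb6b at 7.09 (6.08 to 9.30) and Serpinb9 at 7.06 (6.16 to 7.56). Those 7 genes lay above the median of all tested genes, 5.81 RPKM. Casp4 at 3.58 (3.07 to 3.80) and Zbp1 at 2.55 (2.12 to 3.09) overlapped below it, and Gsdme, at 1.13 (0.940 to 1.34), was the lowest, above 20.8% of the genes tested. Sensor, kinase, caspase and pore genes were thus all counted in these cells.

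**Figure D1:**
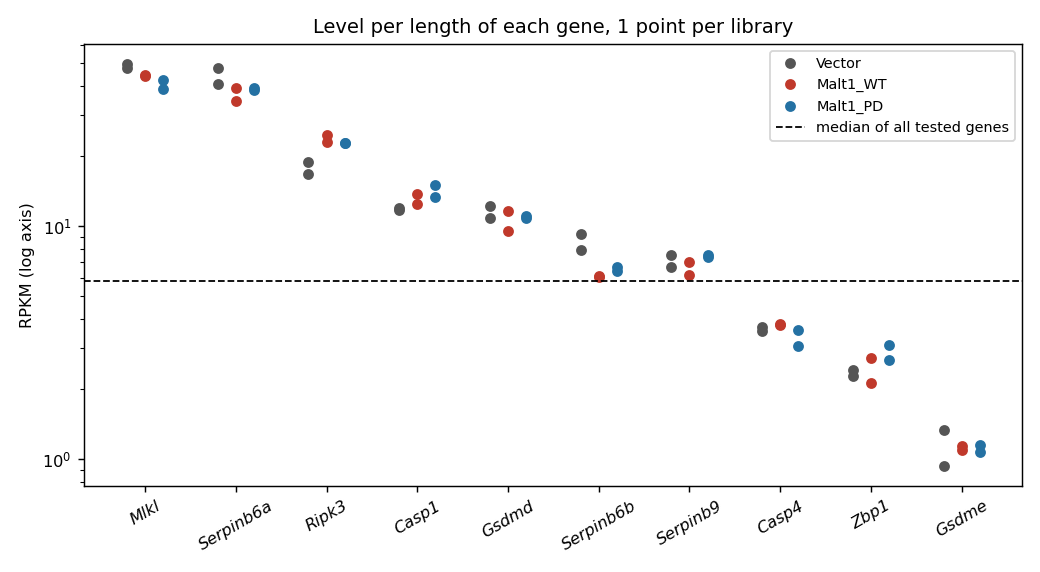
RPKM (log axis) of each of the 10 genes, 1 point per library and 1 colour per group, ordered by the mean; the dashed line is the median of all tested genes (5.81 RPKM). Mlkl and Serpinb6a were at the top and Gsdme at the bottom; neighbours such as Serpinb6b and Serpinb9 overlap.

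Ripk3 (ENSMUSG00000022221.14, chromosome 14, 55784995 to 55788865, minus strand, GRCm38) encodes the kinase that activates MLKL. It was counted at 43.3 and 38.5 CPM in Vector, 52.9 and 56.7 CPM in the Malt1_WT libraries, and 52.3 and 52.3 CPM in those of Malt1_PD. All 4 libraries with added Malt1 lay above both Vector libraries. Ripk3 averaged 40.9 ± 3.35, 54.8 ± 2.68 and 52.3 ± 0.0235 CPM in Vector, Malt1_WT and Malt1_PD (SD, n = 2 each). The log2 fold change was 0.42 ± 0.10 (SE) in Malt1_WT against Vector, with a 95% interval of 0.20 to 0.64 and an adjusted p of 0.351. It was 0.35 ± 0.10 in Malt1_PD against Vector, with an interval of 0.13 to 0.57 and an adjusted p of 0.378. These comparisons share the Vector libraries.

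With the 4 libraries of added Malt1 averaged against Vector, Ripk3 differed by 0.39 ± 0.08 on the log2 scale (adjusted p = 0.175). Between the forms it differed by 0.07 ± 0.09 (interval -0.15 to 0.29, adjusted p = 1.00). The averaged difference was past the threshold in 4 of 13 alternatives, among them removal of the length trend (0.43, adjusted p = 0.0242), and its adjusted p reached 0.787 over them all. Calls over all genes also rose with the length trend removed. Where a Vector library is left out, Vector is 1 library assumed to vary like the other groups, so only the size of the difference is given. Without Vector replicate 1 the value was 0.47, and without Vector replicate 2 it was 0.31. Ripk3 lay above Vector in each of the 13 alternatives.

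The 250 bases before the RefSeq start of Ripk3 (GRCm38.p6, chr14:55788858-55789107, minus strand) are shown because Ripk3 had the smallest p of the 10 genes over the 3 groups. They were searched, with those of the other genes, for an interferon response element (ISRE, read as TTTC, any 2 bases, TTTC), a STAT site (GAS, read as TTCNNNGAA) and the NF-kB consensus by its name. The ISRE and GAS letters were searched on both strands, and the NF-kB consensus only on the strand of the gene. Matches are in capitals, and this window has none.
Ripk3: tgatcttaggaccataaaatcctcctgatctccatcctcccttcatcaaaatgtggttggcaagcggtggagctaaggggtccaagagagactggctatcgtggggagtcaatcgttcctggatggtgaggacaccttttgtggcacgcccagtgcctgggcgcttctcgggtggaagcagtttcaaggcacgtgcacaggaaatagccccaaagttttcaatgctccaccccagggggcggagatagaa
Of 10 genes, 8 had a window in the RefSeq table, at 10 starts, and Zbp1 and Gsdmd had none. Over the 32851 windows of the table, 2.98% hold the ISRE letters, 7.02% the GAS letters and 5.00% the NF-kB consensus on the strand of the gene. On the strands searched, the windows of Mlkl, Gsdme, Casp1 and Serpinb6b also lack all 3. A match is a description of letters, and its absence says nothing of a factor.

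Mlkl (ENSMUSG00000012519.14, chromosome 8, 111311797 to 111338177, minus strand) encodes the executor of necroptosis, and its values lay on the other side of Vector from those of its kinase. It stood at 114 and 110 CPM in Vector, 102 and 102 CPM in the Malt1_WT libraries, and 89.0 and 97.4 CPM in those of Malt1_PD. Every library with added Malt1 lay below both Vector libraries, and both Malt1_PD libraries lay below both Malt1_WT libraries. The log2 fold change was -0.14 ± 0.08 in Malt1_WT (interval -0.33 to 0.06, adjusted p = 0.800) and -0.27 ± 0.08 in Malt1_PD (interval -0.46 to -0.07, adjusted p = 0.468), both against Vector. Malt1_WT against Malt1_PD gave 0.13 ± 0.08 (interval -0.07 to 0.32, adjusted p = 1.00).

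The balance between kinase and executor mRNA can be read within each library. The ratio of Ripk3 to Mlkl in RPKM was 0.381 and 0.353 in Vector, 0.522 and 0.558 in Malt1_WT, and 0.591 and 0.540 in Malt1_PD. The groups with added Malt1 overlapped each other and lay above Vector in all 4 libraries. This ratio combines the 2 differences above, was formed after they were seen and has no test of its own.

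Zbp1 (ENSMUSG00000027514.14, chromosome 2, 173206612 to 173218923, minus strand), the sensor gene, was the least counted of the 10 with 135 to 184 counts a library. It stood at 8.04 and 8.50 CPM in Vector, 9.60 and 7.47 CPM in the Malt1_WT libraries, and 9.41 and 10.9 CPM in those of Malt1_PD. The Malt1_WT libraries enclosed the Vector libraries, and both Malt1_PD libraries lay above Vector. Against Vector the log2 fold changes were 0.03 ± 0.18 for Malt1_WT (interval -0.38 to 0.45, adjusted p = 0.985) and 0.30 ± 0.18 for Malt1_PD (interval -0.11 to 0.70, adjusted p = 0.694). The interval between the forms, -0.67 to 0.14 around -0.26 ± 0.18, leaves room for a difference in either direction, and the value was -0.45 without Malt1_WT replicate 1, -0.084 without Malt1_WT replicate 2 and -0.15 without Malt1_PD replicate 2. Against Vector, the Malt1_PD value was 0.19 without Malt1_PD replicate 2.

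**Figure D2:**
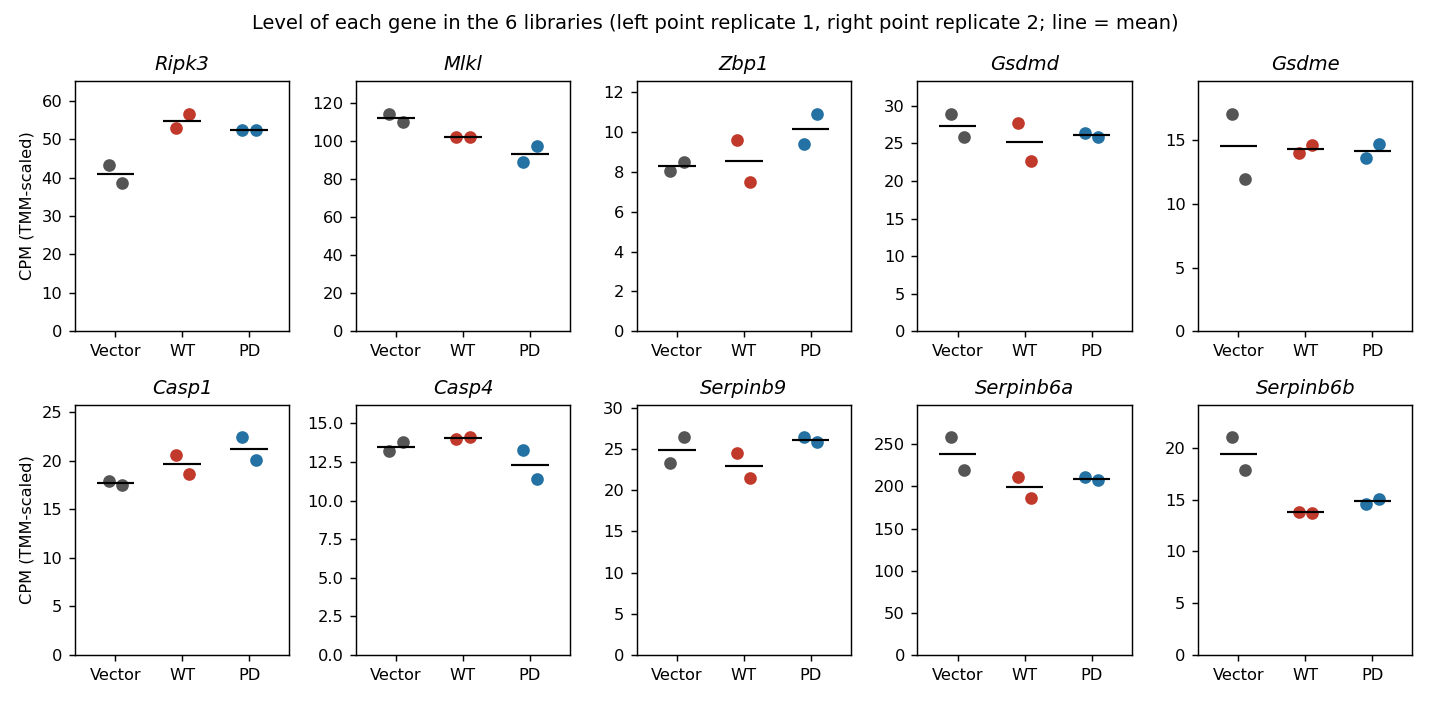
CPM of each of the 10 genes in the 6 libraries (axes start at 0; the left point of a group is replicate 1, the right point replicate 2, the line their mean). Ripk3 and Casp1 are higher and Mlkl, Serpinb6a and Serpinb6b are lower in all 4 libraries with added Malt1 than in both Vector libraries, while Gsdmd, Gsdme and Serpinb9 overlap Vector in both groups.

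Among the inflammatory caspases, Casp1 (ENSMUSG00000025888.5, chromosome 9, 5298517 to 5307265, plus strand), the inflammasome protease gene, stood at 17.9 and 17.6 CPM in Vector, 20.6 and 18.7 CPM in the Malt1_WT libraries, and 22.4 and 20.1 CPM in those of Malt1_PD. All 4 libraries with added Malt1 lay above Vector, and the 2 forms overlapped. Relative to Vector, Casp1 differed on the log2 scale by 0.15 ± 0.12 for Malt1_WT (interval -0.13 to 0.42, adjusted p = 0.860) and 0.26 ± 0.12 for Malt1_PD (interval -0.01 to 0.53, adjusted p = 0.596). The forms differed by -0.12 ± 0.12 (interval -0.39 to 0.16, adjusted p = 1.00).

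Casp4 (ENSMUSG00000033538.13, chromosome 9, 5308828 to 5336783, plus strand), the next gene after Casp1 on the chromosome, encodes the caspase that senses cytosolic lipopolysaccharide. It stood at 13.2 and 13.8 CPM in Vector, 14.0 and 14.1 CPM in the Malt1_WT libraries, and 13.3 and 11.4 CPM in those of Malt1_PD. Malt1_WT lay just above Vector, and Malt1_PD overlapped it. Its log2 fold changes were 0.06 ± 0.13 (interval -0.25 to 0.37, adjusted p = 0.959) and -0.13 ± 0.13 (interval -0.44 to 0.18, adjusted p = 0.819), and 0.19 ± 0.13 between the forms (interval -0.12 to 0.50, adjusted p = 1.00). Without Malt1_PD replicate 1 or 2 the Malt1_PD value was -0.25 or -0.022, and that between the forms 0.30 or 0.082. The coding sequences of Casp1 and Casp4 are 65.4% identical over 1088 aligned bases, and no stretch of 75 bases of either transcript set occurs in a transcript of another gene. Among the 8 genes with a window, Casp4 alone has a match to the NF-kB consensus on the strand of the gene. It is shown with its neighbouring bases, from 93 to 84 bases before the first of 2 starts (chr9:5308736-5308785, plus strand, match in capitals).
Casp4: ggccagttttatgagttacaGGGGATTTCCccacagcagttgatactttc
A second match to the same consensus on that strand overlaps it by all but 1 base. The other strand was not searched for this consensus, and bases that fit it there lie nearer the start.

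The gasdermin genes showed no separation of the groups. Gsdmd (ENSMUSG00000022575.5, chromosome 15, 75862327 to 75867408, plus strand), the pore former of caspase-1 and caspase-4, stood at 29.0 and 25.8 CPM in Vector, 27.7 and 22.7 CPM in the Malt1_WT libraries, and 26.3 and 25.8 CPM in those of Malt1_PD. Its log2 fold changes against Vector were -0.13 ± 0.13 for Malt1_WT (interval -0.42 to 0.16, adjusted p = 0.895) and -0.07 ± 0.13 for Malt1_PD (interval -0.36 to 0.22, adjusted p = 0.911). It differed between the forms by -0.06 ± 0.13 (interval -0.35 to 0.24).

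Gsdme (ENSMUSG00000029821.15, chromosome 6, 50188888 to 50263862, minus strand), the gasdermin that granzyme B opens, stood at 17.1 and 12.0 CPM in Vector, 14.0 and 14.6 CPM in the Malt1_WT libraries, and 13.6 and 14.7 CPM in those of Malt1_PD. The Vector libraries enclosed all the others. Its log2 fold changes were -0.02 ± 0.18 (interval -0.43 to 0.39, adjusted p = 0.992) and -0.03 ± 0.18 (interval -0.44 to 0.37, adjusted p = 0.974). At 12742 nt it is the longest of the 10 genes, and Vector replicate 1, where long genes took a lower share, had the higher Gsdme value. Without that library the log2 fold changes were 0.26 for Malt1_WT and 0.24 for Malt1_PD, and without Vector replicate 2 they were -0.25 and -0.26, so the direction turned on which Vector library was kept. With the length trend removed they were -0.09 and -0.13, and none of these values was called.

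Of the serpins, Serpinb6b and Serpinb6a lay below Vector in all libraries with added Malt1, and Serpinb9 overlapped it. Serpinb6b (ENSMUSG00000042842.11, chromosome 13, 32965209 to 32979067, plus strand), whose product inhibits granzyme A, stood at 21.03 and 17.9 CPM in Vector, 13.9 and 13.7 CPM in the Malt1_WT libraries, and 14.6 and 15.1 CPM in those of Malt1_PD. All 4 libraries with added Malt1 lay below both Vector libraries, with means of 19.5 ± 2.21, 13.8 ± 0.0826 and 14.8 ± 0.340 CPM (SD, n = 2 each). The log2 fold changes against Vector were -0.50 ± 0.13 for Malt1_WT (interval -0.79 to -0.20, adjusted p = 0.432) and -0.39 ± 0.13 for Malt1_PD (interval -0.69 to -0.10, adjusted p = 0.478). The averaged difference was -0.44 ± 0.11 (adjusted p = 0.240), and the forms differed by -0.10 ± 0.13 (interval -0.41 to 0.20, adjusted p = 1.00). Without Vector replicate 2 the averaged difference was -0.55, and without Vector replicate 1 it was -0.32. In both fits the other groups alone supply the spread. Of 13 alternatives, only the fit without Vector replicate 2 put Serpinb6b past the threshold. Among the fits with 1 library left out, that fit also called the most of all genes. The crossing therefore cannot be read as particular to Serpinb6b. The adjusted p reached 0.821 over the 13 alternatives.

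Serpinb6a (ENSMUSG00000060147.15, chromosome 13, 33917918 to 34002794, minus strand), the paralog that inhibits trypsin-like proteases and cathepsin G, lay on the same side of Vector by a smaller amount. It stood at 258 and 220 CPM in Vector, 211 and 187 CPM in the Malt1_WT libraries, and 211 and 208 CPM in those of Malt1_PD, again with all 4 libraries below both Vector libraries. The log2 fold changes were -0.27 ± 0.10 (interval -0.50 to -0.03, adjusted p = 0.661) and -0.19 ± 0.10 (interval -0.43 to 0.05, adjusted p = 0.657), with -0.07 ± 0.10 between the forms (interval -0.31 to 0.16, adjusted p = 1.00). Without Vector replicate 2 the averaged difference of -0.23 ± 0.09 became -0.335, and without Vector replicate 1 it was -0.11, again with the spread taken from the other groups. The value without Vector replicate 2 was past the threshold, in the same fit that called the most of all genes. That crossing cannot be read as particular to Serpinb6a either. The adjusted p reached 0.925 over 13 alternatives. The ratio of Serpinb6a to Serpinb6b in RPKM was 5.14 and 5.14 in Vector against 6.37 and 5.69 in Malt1_WT and 6.04 and 5.77 in Malt1_PD, a description with no test.

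Reads of the 2 paralogs can be told apart. Their coding sequences are 86.4% identical over 1131 aligned bases, and no 75-base stretch of a Serpinb6b transcript occurs in a transcript of another gene. The 60 aligned bases with the most differences are shown as an example, from coding positions 493 to 552 of Serpinb6a and 430 to 489 of Serpinb6b (GENCODE M21, the longest complete coding sequence of each), with the 15 differing bases in capitals.
Serpinb6a: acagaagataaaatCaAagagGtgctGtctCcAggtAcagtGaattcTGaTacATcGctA
Serpinb6b: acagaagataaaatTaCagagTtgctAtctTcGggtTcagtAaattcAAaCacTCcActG
Serpinb6a has another source of uncertainty: its exons overlap those of genes on the other strand, by 762 bases with Nqo2, 584 with 1110046J04Rik and 241 with Ripk1, and 22.0% of its 75-base stretches occur in their transcripts. The library kit marks strand, but the strand setting of the counting is not given in the sources used here. Nqo2 and Ripk1 had 2863 and 4282 counts over all libraries against 22092 for Serpinb6a.

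Serpinb9 (ENSMUSG00000045827.10, chromosome 13, 33003250 to 33017957, plus strand), whose product inhibits granzyme B, stood at 23.3 and 26.4 CPM in Vector, 24.5 and 21.5 CPM in the Malt1_WT libraries, and 26.4 and 25.8 CPM in those of Malt1_PD. Both groups overlapped Vector. The log2 fold changes against Vector were -0.12 ± 0.12 for Malt1_WT (interval -0.39 to 0.15, adjusted p = 0.893) and 0.07 ± 0.12 for Malt1_PD (interval -0.20 to 0.34, adjusted p = 0.901). The forms differed by -0.19 ± 0.12 (interval -0.46 to 0.08, adjusted p = 1.00). Serpinb9 and the first start of Serpinb6a are the 2 genes whose windows hold the ISRE letters, in capitals from 46 to 37 bases before the start of Serpinb9 (chr13:33004475-33004524, plus strand) and from 84 to 75 bases before that of Serpinb6a (chr13:34002849-34002898, minus strand), where a GAS match overlaps the last bases of the ISRE match.
Serpinb9: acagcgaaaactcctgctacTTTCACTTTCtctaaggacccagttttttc
Serpinb6a: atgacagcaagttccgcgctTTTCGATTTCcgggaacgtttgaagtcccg
Of the 2 genes with these letters, Serpinb6a lay below Vector in all 4 libraries with added Malt1 and Serpinb9 overlapped Vector.

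**Figure D3:**
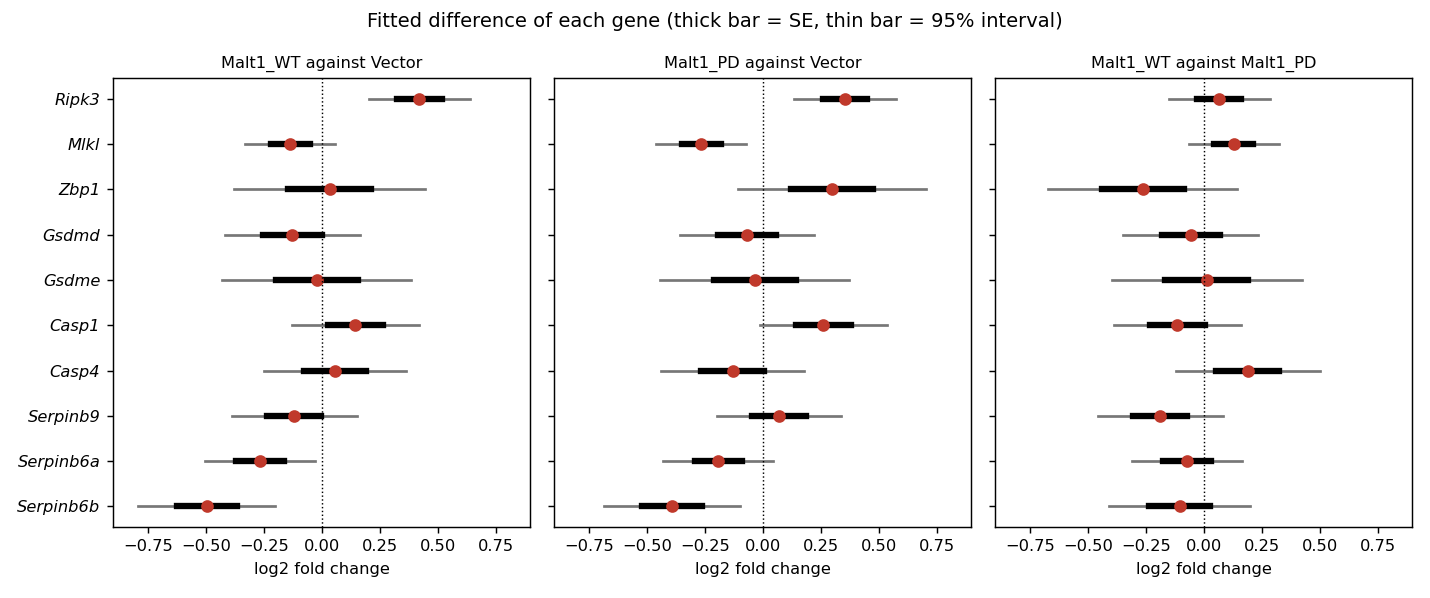
Log2 fold change of each of the 10 genes in the 3 comparisons of groups (point, fitted value; thick bar, SE; thin bar, 95% interval from the quasi-likelihood fit, 2 libraries per group). The intervals of Ripk3 and Serpinb6b exclude 0 against Vector for both forms, and those of Malt1_WT against Malt1_PD all include 0; no gene passed the threshold after adjustment over all genes.

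Counted over the 10 genes, edgeR called 0 in each of the 4 comparisons, and DESeq2 and limma-voom called 0 as well. The background was low too: 0.00681% of all tested genes were called in each comparison of 2 groups, 1 gene of 14675, and 0.0273% with the forms averaged. At an unadjusted p under 0.05, 1 gene was higher (Ripk3) and 2 lower (Serpinb6a and Serpinb6b) in Malt1_WT against Vector, beside 3.3% higher and 3.8% lower among all genes (7.09% together). In Malt1_PD against Vector these were 1 higher (Ripk3) and 2 lower (Mlkl and Serpinb6b), beside 3.73% and 4.88% of all genes (8.61% together). With the forms averaged they were 1 higher and 3 lower, beside 4.45% and 5.4% (9.85% together). In Malt1_WT against Malt1_PD they were 0 in either direction, beside 0.838% and 1.08% (1.92% together). Groups did not overlap for 6 of the 10 genes in Malt1_WT against Vector, 3 higher and 3 lower, beside 15.5% and 17.1% of all genes (32.6% together). In Malt1_PD against Vector 3 were higher and 3 lower, beside 18.4% and 19.7% (38.1% together). In Malt1_WT against Malt1_PD 3 were higher and 2 lower, beside 16.1% and 16% (32.1% together). With the forms averaged 2 were higher and 3 lower, beside 9.74% and 10.8% (20.6% together). The median log2 fold change of the 10 genes was -0.07, -0.05, -0.07 and -0.03 in the order Malt1_WT against Vector, Malt1_PD against Vector, Malt1_WT against Malt1_PD and the averaged comparison, with medians of all genes at 0.00. Since the genes were chosen with earlier results of these data known, these counts are a description. In a bulk library, fewer cells with a transcript and less transcript per cell cannot be told apart.

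Of 20 listed necroptosis regulators, all were tested and 0 were called in any comparison by edgeR; at an unadjusted p under 0.05, 1 was lower in Malt1_WT and 2 in Malt1_PD against Vector, beside 3.8% and 4.88% of all genes, and the list medians were -0.02 and -0.02. Ripk1, the partner kinase of RIPK3, had log2 fold changes of 0.06 ± 0.12 and 0.19 ± 0.12. It shares 241 exonic bases with Serpinb6a on the other strand and had fewer counts (4282 against 22092). The unknown strand setting therefore leaves its values uncertain too. Casp8, the brake on necroptosis, stood at 40.0 and 38.4 CPM in Vector, 31.4 and 35.2 CPM in the Malt1_WT libraries, and 40.6 and 37.9 CPM in those of Malt1_PD. It was the regulator in which Malt1_WT lay below both other groups without overlap and with the smallest p between the forms (-0.23 ± 0.10 against Malt1_PD, adjusted p = 1.00; -0.23 ± 0.10 against Vector, adjusted p = 0.699). Chmp2a and Chmp4b, subunits of the ESCRT-III machinery that repairs the membrane, had log2 fold changes against Vector of -0.23 ± 0.11 and -0.12 ± 0.12 in Malt1_WT and -0.31 ± 0.11 and -0.26 ± 0.12 in Malt1_PD. Ppm1b, a phosphatase that acts on RIPK3, had -0.15 ± 0.08 and -0.20 ± 0.08. The NF-kB inhibitor gene Tnfaip3 had 0.17 ± 0.10 in Malt1_WT and 0.01 ± 0.11 in Malt1_PD, both against Vector. Tnfrsf1a, the TNF receptor gene, was high at 66.8 RPKM, beside Chmp4b at 108 and Chmp2a at 46.5 RPKM.

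Much of the inflammasome list lay close to the floor. Of 29 listed genes 23 had a row and 15 were tested, and 0 were called by edgeR in any comparison. Pycard, the adaptor that joins sensors to caspase-1, had 18 counts over all 6 libraries, and Il1b had 16. Aim2 and Ninj1, which encode a DNA sensor and the protein that ruptures the membrane at the end of pyroptosis, were at 23.6 and 21.8 RPKM.

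Txnip, a thioredoxin-binding protein gene tied to NLRP3, had the smallest p in this list. It stood at 75.7 and 68.7 CPM in Vector, 50.3 and 53.0 CPM in the Malt1_WT libraries, and 49.2 and 51.0 CPM in those of Malt1_PD, all 4 values below Vector. On the log2 scale Txnip differed from Vector by -0.48 ± 0.09 (adjusted p = 0.263) and -0.53 ± 0.09 (adjusted p = 0.165), and -0.50 ± 0.08 for the average (adjusted p = 0.0834). Aim2 had -0.20 ± 0.09 in the Malt1_WT comparison and -0.19 ± 0.09 in the Malt1_PD comparison. Between the forms, Nlrp3 had -0.24 ± 0.17, Irgm2 0.16 ± 0.11 and the thinly counted Nlrc4, with 62 counts in all, -0.74 ± 0.76. The list medians against Vector were -0.11 and -0.06, and 2 of the 15 genes in Malt1_WT and 1 in Malt1_PD were lower at an unadjusted p under 0.05, beside 3.8% and 4.88% of all genes.

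Beyond the 3 serpins above, 16 of 18 listed serpins had a row and 2 were tested, and neither was called. Serpinb9b, the paralog of Serpinb9 whose product inhibits granzyme M, was at 20.0 RPKM, above Serpinb9 itself at 7.06 RPKM. It stood at 72.0 and 66.0 CPM in Vector, 66.6 and 63.0 CPM in the Malt1_WT libraries, and 66.8 and 68.2 CPM in those of Malt1_PD, with log2 fold changes of -0.09 ± 0.09 and -0.03 ± 0.09 against Vector. Its coding sequence is 86.5% identical to that of Serpinb9. Serpinb1a, which inhibits neutrophil proteases, had 450 counts in all and log2 fold changes of 0.16 ± 0.30 and 0.55 ± 0.30.

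Of 19 genes for granzyme uptake and granzyme substrates, 17 were tested and 0 were called by edgeR, with list medians of -0.03 and -0.06 against Vector and 1 gene lower at an unadjusted p under 0.05 in each, beside 3.8% and 4.88% of all genes. That gene was Ctsl, the cathepsin L gene, at 622 and 522 CPM in Vector, 501 and 442 CPM in the Malt1_WT libraries, and 465 and 463 CPM in those of Malt1_PD, with log2 fold changes of -0.28 ± 0.10 and -0.30 ± 0.10. The mitochondrial gene Hax1 had -0.25 ± 0.11 and -0.23 ± 0.11, Bid, which links granzyme B to mitochondrial apoptosis, 0.19 ± 0.12 and 0.18 ± 0.12, and Numa1 0.21 ± 0.13 and 0.25 ± 0.13. Between the forms, the DNase gene Dffb had 0.28 ± 0.23, Prkdc -0.21 ± 0.18 and the cathepsin B gene Ctsb 0.07 ± 0.07. Set, Ctsb and Hmgb2 were the most abundant, at 175, 114 and 88.6 RPKM.

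**Figure D4:**
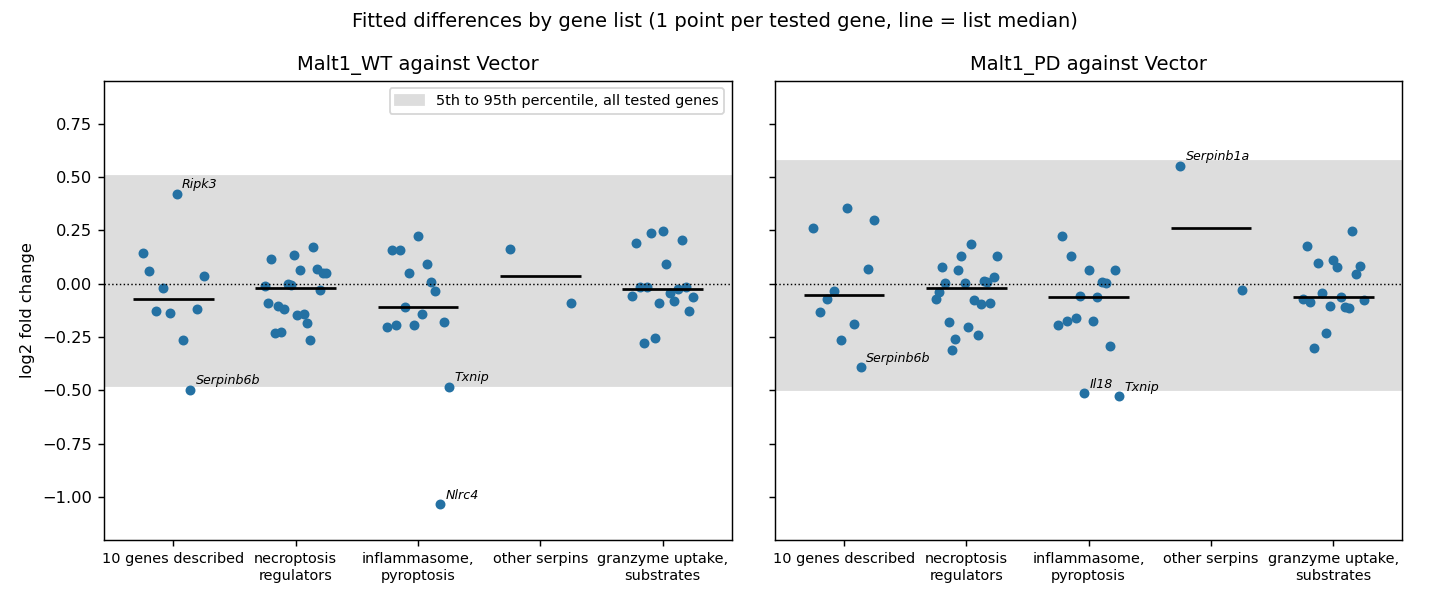
Log2 fold change of every tested gene of the 5 lists against Vector, for Malt1_WT (left) and Malt1_PD (right); the line is the list median and the grey band the 5th to 95th percentile of all 14675 tested genes. Most genes lie in the band. In Malt1_WT, Ripk3 sits near its upper edge, Serpinb6b just below its lower edge, and the thinly counted Nlrc4 far below it at -1.03. Txnip sits at or just below the lower edge in both panels.

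The pattern of the 3 genes of smallest p over the 3 groups was set beside genes outside the lists whose log2 CPM averaged 1 or more (predicted Gm and Rik models left out), by Pearson correlation of log2 CPM over the 6 libraries. Ripk3 was most alike to Cmpk2 (r = 0.993), Dedd2 (0.990) and Rcor2 (0.987). Serpinb6b was most alike to Arl8a (0.991), Gmppa (0.990) and Tasp1 (0.990), and Mlkl to Ripor3 (0.997), Ube2e2 (0.992) and Slc7a3 (0.991). Among 10583 genes searched, 45, 91 and 53 had r over 0.95 with Ripk3, Serpinb6b and Mlkl, so these names are a description of 6 shared libraries and carry no p.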

How the data were processed

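RNA from 6 libraries of E0771 cells was sequenced in pairs of 150 bases from a directional kit, per the labels' protocols. The authors deposited raw counts per gene. Per the submitters' processing notes the genome was GRCm38.p6, reads were handled with STAR 2.7.3a and Trim Galore 0.6.0, and featureCounts 1.6.3 is listed too. How strand was set in the counting is not given in the sources used here. The 6 log2 RPKM columns of the same table were not used. The deposited gene lengths, used for RPKM, equal the exonic bases of GENCODE M21 for all 10 genes, and gene coordinates come from that release. Counts of 14675 of 28063 genes (filterByExpr) were fitted with edgeR 4.0.16 (R 4.3.3; TMM, glmQLFit, glmQLFTest, all 6 libraries, a mean per group), with Benjamini-Hochberg adjustment over all genes and a threshold of 0.05. The fit was also run on simulated counts with no length trend and with changes larger than those of the 10 genes. That run therefore does not show how well differences of the size described here are found. SE and 95% intervals come from the quasi-likelihood F. The common dispersion gave a coefficient of variation of 10.1%.

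The genes and lists were chosen with earlier results of these data known. By the rule for names, all 10 genes are reported, with, from each list, any gene called, up to 3 of smallest p per comparison and the 3 of highest RPKM. The alternatives were DESeq2 1.42.0 (size factors, Wald test), limma-voom (limma 3.58.1), no filter, an adjusted p under 0.1, the groups compared alone, a replicate block, the length trend removed, each library left out in turn and Vector 1 with Malt1_WT 1 left out together. Promoter windows are RefSeq's (GRCm38.p6). Genes that the rule for names would add but that are withheld are not reported here.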

Additional observations from a re-analysis of the deposited data

How the results depend on the processing

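Of 550 values of the 10 genes under the alternatives, 511 kept their direction and side of the threshold, 15 passed it and 24 changed sign uncalled. These lay in 6 genes. Without both libraries poor in long genes (Vector 1 and Malt1_WT 1), Gsdme was 0.29 in Malt1_WT, 0.25 in Malt1_PD and 0.27 averaged, all against Vector, Gsdmd 0.018 and Serpinb9 -0.014 in Malt1_PD, and Zbp1 -0.19 in Malt1_WT. With limma-voom, Gsdme was 0.0035 in Malt1_WT. With 1 library left out, values in Malt1_WT against Vector ran from -0.25 to 0.26 for Gsdme, -0.27 to 0.018 for Gsdmd and -0.15 to 0.22 for Zbp1. In Malt1_PD against Vector they ran from -0.26 to 0.24 for Gsdme, -0.15 to 0.016 for Gsdmd and -0.017 to 0.17 for Serpinb9. Averaged, they ran from -0.26 to 0.25 for Gsdme, -0.11 to 0.072 for Serpinb9 and -0.094 to 0.019 for Casp4. Between forms they ran from -0.040 to 0.068 for Gsdme, -0.20 to 0.084 for Gsdmd and -0.17 to 0.012 for Serpinb6a. The cause was not tested.

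The count of the 10 genes called, 0 throughout, rose in each comparison without both libraries, a fit whose spread comes from the Malt1_PD pair alone. Calls over all genes rose in each comparison of that fit too, so the rise is not particular to the 10 genes. The count of the 10 became 1 (averaged) with the length trend removed or with no low-count filter, where calls over all genes also rose. With 1 library left out it rose in some fits in Malt1_WT against Vector and in the averaged comparison, and was 0 in the others. Calls over all genes rose in those 2 comparisons as well.

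Genes tested numbered 14675 in the main fit, 28063 with no filter and 15220 without both libraries. Counts of all genes called were 1, 1, 1 and 4 in the order Malt1_WT against Vector, Malt1_PD against Vector, between forms and averaged. They became 31, 43, 1 and 80 with DESeq2, 56, 95, 1 and 207 with the length trend removed, 113, 188, 12 and 255 with no filter, 936, 2081, 358 and 1754 without both libraries, and 4, 3, 1 and 55 at an adjusted p under 0.1. With 1 library left out they ran from 1 to 599, 0 to 928, 1 to 1 and 1 to 1204, with the highest without Vector replicate 2.

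Replicate numbers are shared by the groups but nothing says that they pair libraries. Same-numbered deviations correlated at 0.68 for Vector with Malt1_WT, and at -0.01 and 0.03 with Malt1_PD. The replicate block called 6, 9, 1 and 52 genes and 0 of the 10.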
